A study of Hevea brasiliensis with 6 samples.

Results

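The leaves of ‘Reken501’, a cold-sensitive clone of the rubber tree (Hevea brasiliensis), were compared after 24 h at 4 °C and without cold treatment. Each side of the comparison was 1 library, made from leaves pooled over 3 seedlings of 1 clone, so no difference below has a replicate check. The members are all unigenes with a fragment in at least 1 of these libraries, which were 160111 of the 167072 unigenes of the series. A unigene is a transcript sequence assembled from the reads. A unigene named as a contig belongs to a cluster of related assembled sequences, and the others stand alone. The series also holds a ‘Reken501’ library after 1 h at 4 °C, and libraries of the cold-resistant clone ‘93-114’ after 1 h and 24 h at 4 °C and without cold treatment. All plants were about 1 year old and carried leaves of the same stage, and nothing but the cold differed between the groups of a clone in the labels.

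The rubber tree is grown for its latex, and its tropical origin makes its leaves liable to chilling injury. In plants at large, chilling stiffens membranes and slows enzymes, and calcium signals and transcription factors of the ICE1 and CBF/DREB families then switch on cold-responsive genes within hours. Heat shock proteins, scavengers of reactive oxygen and the jasmonate, ethylene and abscisic acid pathways are known parts of this response, and photosynthesis and growth genes are commonly reduced in chilled leaves. The unigene IDs are paired with no gene names, and 0 of them matched the 50196 genes of the RefSeq annotation. The functions of the unigenes, and the markers of leaf tissue, were therefore not analysed here, and the unigenes are described by their values.

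The libraries of ‘Reken501’ held 21.6 M fragments after 24 h of cold and 21.2 M in control leaves, and those of the series ranged from 20.4 M to 21.9 M. In the 24 h library a fragment was counted on 154268 unigenes and in the control library on 144655. Of the 160111 unigenes, 138812 were read in both libraries, 15456 only after 24 h and 5843 only in control leaves. Values are set relative to the total of each library, so a lower share cannot be told apart from a rise of other transcripts. In these pooled leaves, fewer cells that express a transcript and less of it per cell cannot be told apart either.

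After 24 h of cold, 6403 unigenes were raised and 5870 were lowered. These were 4.00% and 3.67% of all unigenes tested. A unigene was called when its fragments differed in a two-sided exact binomial test at an adjusted p of 0.001 or less and by 2-fold or more. This test compares the libraries and holds no spread between trees. The changes were unequal in size. Among the raised unigenes, the median was 50 fragments in the 24 h library and 7 fragments in the control library. Among the lowered unigenes it was 32 fragments in the 24 h library and 92 in the control library. Per length, the median FPKM (fragments per kilobase of unigene and M fragments) of the raised unigenes was 3.99 after 24 h and 0.474 in control leaves, and that of the lowered ones was 1.86 after 24 h and 6.13 in control leaves. The median log2 ratio was 2.74 for the raised unigenes and -1.63 for the lowered ones. With every count below 3 set to 3, which is what a count of 0 allows, the medians were 2.52 and -1.65.

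Large changes were mostly increases. With the same minimum of 3 fragments, 4384 unigenes were raised and 1970 lowered by 4-fold or more, 1720 and 433 by 8-fold or more, 418 and 48 by 16-fold or more, and 88 and 10 by 32-fold or more. The excess of large increases was also seen among well-read unigenes. Where the libraries averaged 100 fragments or more, 1022 were raised and 1866 lowered, whereas 86 were raised and 12 lowered by 16-fold or more. The scaling between the libraries moved the split of all calls. With TMM factors, which align the bulk of the unigenes and raise every log2 ratio by 0.10, 7525 unigenes (4.70%) were raised and 4612 (2.88%) were lowered. All 6403 raised unigenes were called again, as were 4612 of the 5870 lowered ones. A common upward shift favours raised calls, so the return of all of them is no check on them. By an assumed coefficient of variation of 0.4 between pools, in edgeR's exact test, 60 unigenes were raised and 9 lowered.

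**Figure D1:**
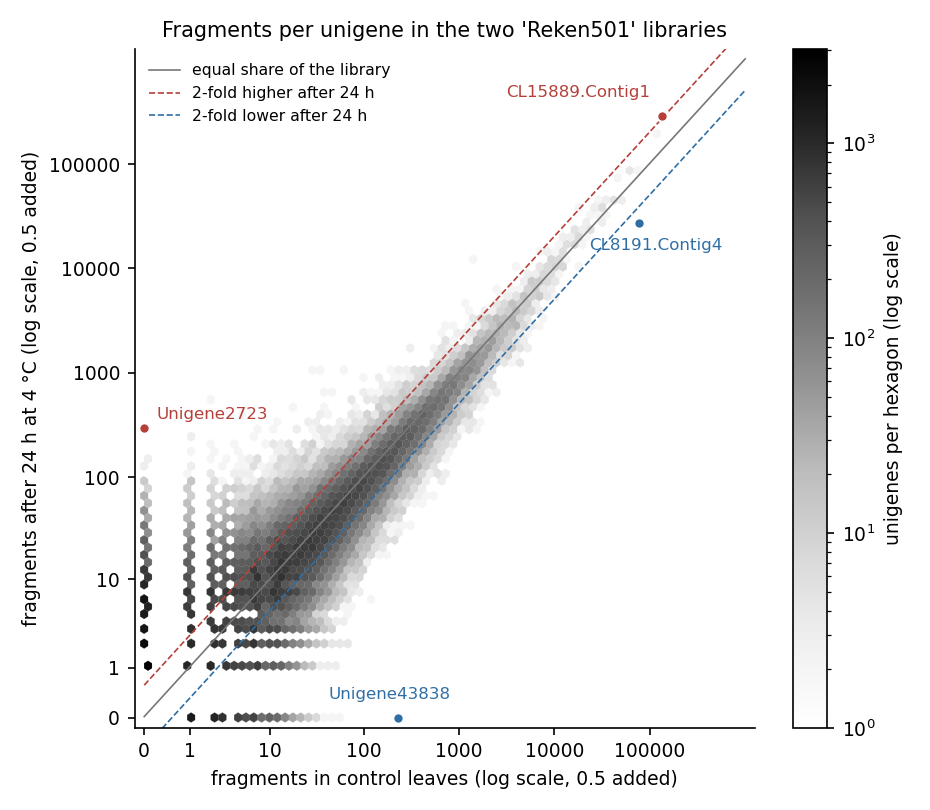
Fragments per unigene in the ‘Reken501’ library after 24 h at 4 °C (vertical axis) against the control library (horizontal axis), both on log scales with 0.5 fragments added, for 160111 unigenes. Shading gives the number of unigenes, the solid line marks an equal share of both libraries, and the dashed lines mark a 2-fold difference. At low control counts the cloud can spread further above the lines than below them, since counts cannot be negative. The 4 coloured points are the unigenes described by ID.

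Only 4 unigenes are described by ID, since their IDs carry no gene names. Unigene2723_All, a stand-alone unigene of 1638 bases, had the largest ratio among raised unigenes with at least 200 fragments. It had 299 fragments in ‘Reken501’ after 24 h and 0 in control leaves, which is at least 97.9-fold higher with the 0 set to 3 fragments, and it had 11 fragments after 1 h. The exact 95% interval of the log2 ratio, which also holds the counting error of the 299 fragments, began at 6.31. In ‘93-114’ it had 159 fragments after 24 h and 2 in control leaves, with 5 after 1 h. It was thus nearly unread in the control libraries of both clones and well read in both 24 h libraries. CL15889.Contig1_All, a contig of 8908 bases, gained more fragments than any other raised unigene. It had 290282 fragments (1509 FPKM) after 24 h and 135422 fragments (716 FPKM) in control leaves, with 162640 after 1 h. The log2 ratio of 24 h to control was 1.07, with an exact 95% interval of 1.06 to 1.08 that covers counting error only. In ‘93-114’ it had 230904 fragments after 24 h and 142458 in control leaves, a log2 ratio of 0.59. Its share of the library was thus highest at 24 h in both clones.

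Of the lowered unigenes with at least 200 fragments, Unigene43838_All had the largest ratio. This stand-alone unigene of 1021 bases had 0 fragments in ‘Reken501’ after 24 h and 228 in control leaves, at least 77.4-fold lower with the 0 set to 3 fragments, and it had 470 fragments after 1 h. The exact 95% interval of the log2 ratio ended at -5.96. All libraries of ‘93-114’ had 0 fragments. The unigene was therefore read in 2 of the 6 libraries. CL8191.Contig4_All, a contig of 8809 bases, lost more fragments than any other lowered unigene. It had 27530 fragments (145 FPKM) after 24 h and 77645 fragments (415 FPKM) in control leaves, a log2 ratio of -1.52 (exact 95% interval -1.54 to -1.50). The 1 h library held only 3888 fragments of it, below the level at 24 h. Its cluster holds 11 contigs. Summed over them, the cluster had 28937 fragments after 24 h and 82054 in control leaves, with a log2 ratio of -1.53. In ‘93-114’ this contig was far less abundant and did not fall, with 4147 fragments after 24 h and 2719 in control leaves.

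The behaviour of Unigene43838_All was shared by other unigenes, which were chosen after their values were seen. In 18 unigenes with at least 100 fragments in the control library, no more than 5% of that number was left after 24 h. Of these, 10 had at most 15 fragments over all ‘93-114’ libraries together. These 10 had 0 to 25 fragments each (median 1.5) after 24 h and 127 to 1620 (median 234) in control leaves of ‘Reken501’. Their low counts after 24 h and in ‘93-114’ follow from how they were chosen, whereas the 1 h library of ‘Reken501’ was not used. Summed over the 10, the fragments were 3434 in control leaves, 6706 after 1 h and 38 after 24 h in ‘Reken501’. In ‘93-114’ the sums were 2 in control leaves, 9 after 1 h and 1 after 24 h. After 1 h every one of the 10 stood at 1.29 to 2.36 times its control level. All 10 were thus higher after 1 h than in control leaves. The other 8 had more than 15 fragments over the ‘93-114’ libraries, where 5 were called lowered and 1 raised after 24 h. The cut is not sharp, as 1 of the 8 resembled the 10. It had 865 fragments in control leaves, 1622 after 1 h and 37 after 24 h in ‘Reken501’, and 4, 13 and 10 in ‘93-114’. Of these 8, the 2 with the most control fragments in ‘93-114’ together had 113 fragments after 24 h and 3816 in control leaves, and the remaining unigenes had 239 after 24 h and 470 in control leaves.

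The opposite pattern was more frequent and was common to both clones. In 135 unigenes with at least 100 fragments after 24 h, the control library held no more than 5% of that number. Their median was 6 fragments in control leaves, 22 after 1 h and 227 after 24 h in ‘Reken501’, and single unigenes reached 343, 872 and 9811 fragments. In ‘93-114’, from which no value was used to choose them, the median was 8 fragments in control leaves, 15 after 1 h and 159 after 24 h. Of the 135 unigenes, 120 were called raised and 0 lowered in ‘93-114’ after 24 h by the same exact test, whereas 3.06% of the 153708 unigenes tested in both clones were raised there. Only 5 of the 135 had at most 15 fragments over the ‘93-114’ libraries.

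Many unigenes were read in only 1 of the libraries. With 0 fragments in control leaves and at least 10 after 24 h, 2823 unigenes appeared, and with 0 after 24 h and at least 10 in control leaves, 470 disappeared. These numbers were counted without scaling between the libraries, but they depend on the depth of each library. A count of 0 allows up to 3 fragments, so these unigenes were not detectable at this depth in 1 library rather than shown to be absent. They were short and rare. The 2823 unigenes had a median length of 281 bases, against 424 bases over all unigenes tested, and together took 0.246% of the fragments of the 24 h library. The highest of them was Unigene2723_All. For comparison, 668 unigenes appeared and 483 disappeared between the control and 1 h libraries of ‘Reken501’, which share the control library with the comparison at 24 h. In ‘93-114’, 280 appeared and 985 disappeared at 1 h, and 1995 appeared and 1338 disappeared at 24 h.

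The unigenes that appeared in ‘Reken501’ were also more often read after 24 h in ‘93-114’, whose libraries had no part in choosing them. Their median in ‘93-114’ was 1 fragment in control leaves, 2 after 1 h and 10 after 24 h. At least 10 fragments were counted on 1466 of the 2823 (51.9%) in ‘93-114’ after 24 h and on 219 (7.76%) in its control leaves. These shares over all unigenes were not computed. Of the 2823, 746 (26.4%) were called raised in ‘93-114’ after 24 h, against 3.06% of the unigenes tested in both clones. Their sum in ‘93-114’ was 2127 fragments per M after 24 h and 418 in control leaves. In ‘Reken501’ after 1 h, the median was 2 fragments and 775 of the 2823 were still at 0. The 470 unigenes that disappeared had a median in ‘93-114’ of 4 fragments in control leaves, 2 after 1 h and 1.5 after 24 h. At least 10 fragments were counted on 24 of them in ‘93-114’ after 24 h and on 114 in its control leaves. Of the 470, 31 (6.60%) were called lowered in ‘93-114’, against 12.8% of the unigenes tested in both clones. With counts below 3 set to 3, their median log2 ratio there was -0.52, as it was over all unigenes. Where the ‘93-114’ libraries averaged 10 fragments or more, 35.8% of 67 were lowered, against 21.4% of all such unigenes.

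**Figure D2:**
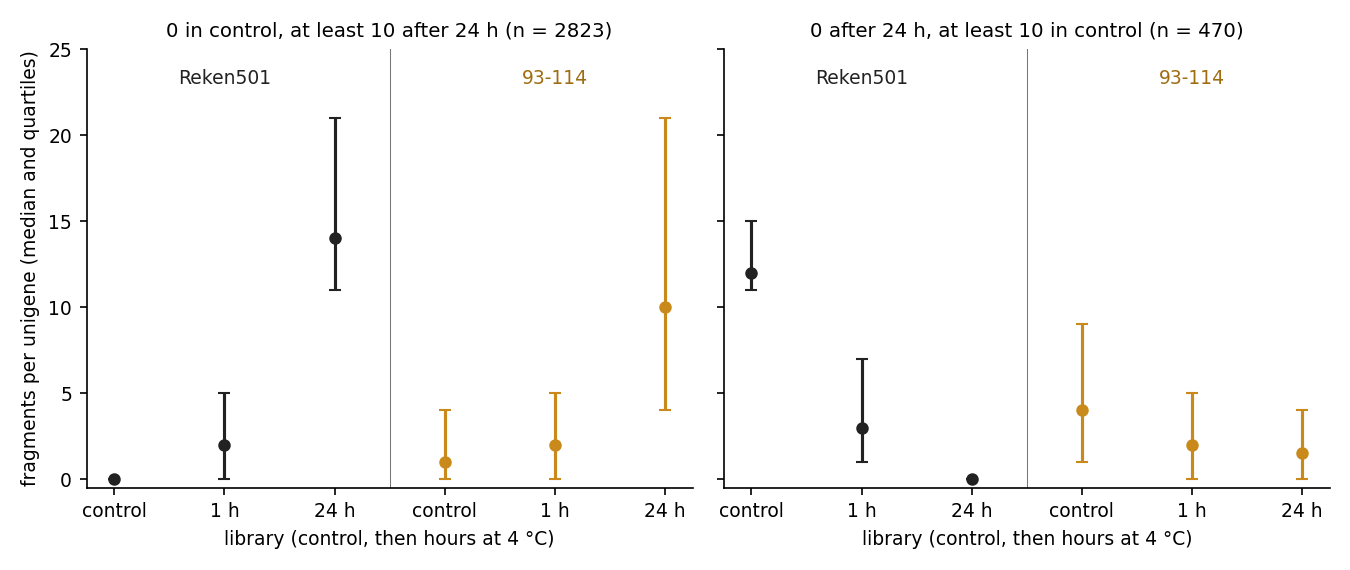
Fragments per unigene (points are medians, bars are quartiles) in the 6 libraries, by clone and hours at 4 °C, for the 2823 unigenes with 0 fragments in control ‘Reken501’ and at least 10 after 24 h (left) and the 470 with the reverse pattern (right). The first and last ‘Reken501’ points chose the sets, while the ‘93-114’ points did not, and there the left set had a median of 10 fragments after 24 h and 1 in control leaves.

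The direction of change varied with the number of fragments on a unigene. In the class that averaged 10 to 30 fragments per library, 2613 of 42517 were raised (6.15%) and 1206 were lowered (2.84%). In the class of 100 to 300 fragments the order was turned round, with 672 raised (5.12%) and 1237 lowered (9.42%) of 13134. Between 3000 and 10000 fragments the numbers were alike, with 31 raised and 30 lowered of 470, and above 10000 fragments 11 were raised and 8 lowered of 198. The median log2 ratio was -0.03 in the class of 10 to 30 fragments, -0.20 in the classes from 100 to 1000 fragments and 0.15 above 10000. With TMM factors these medians were 0.08, -0.10 and 0.26, so the intermediate classes were below 0 and the most abundant class above 0 under both scalings. No unigene that averaged under 3 fragments was called, because the smallest sum over both libraries that was called was 14 fragments. With library totals, the preponderance of raised over lowered calls therefore rested on unigenes of low abundance. When the test was limited to unigenes that averaged 10 fragments or more, under the same scaling, 6064 were raised and 6108 were lowered. With TMM factors the preponderance was larger, and its dependence on abundance was not tested.

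**Figure D3:**
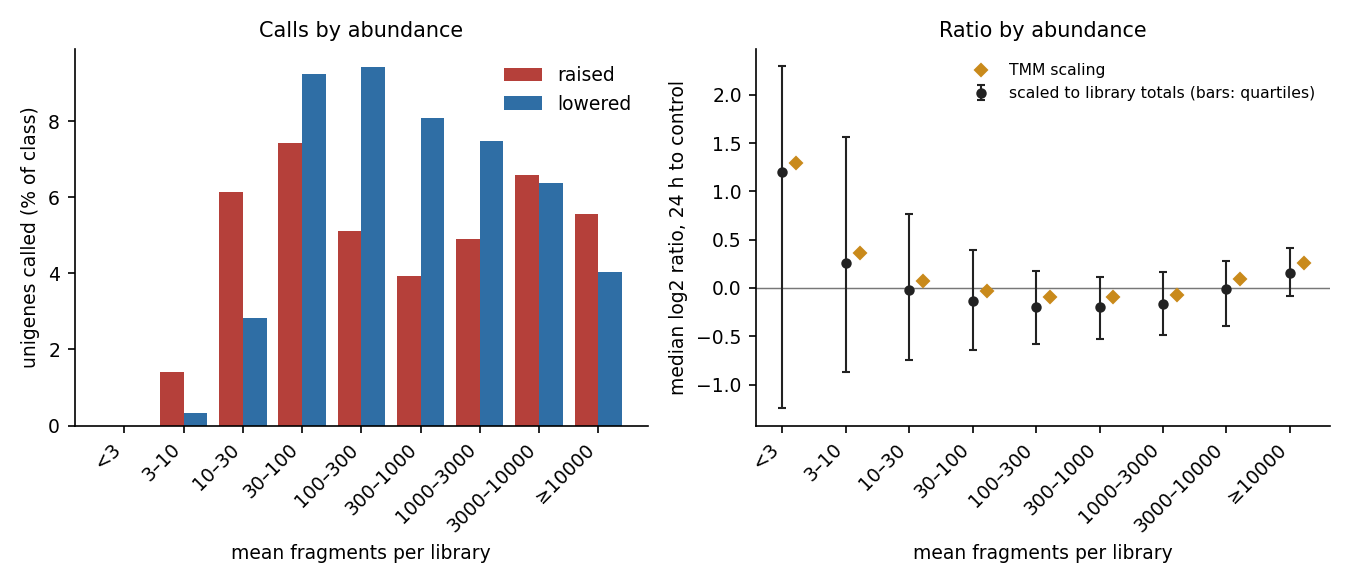
Left, the share of unigenes raised and lowered after 24 h of cold in ‘Reken501’ in 9 classes of mean fragments per library. Right, the median log2 ratio of 24 h to control in the same classes, scaled to library totals (circles, with quartiles as bars) or with TMM factors (diamonds). With library totals, raised unigenes outnumbered lowered ones below 30 fragments, and lowered ones outnumbered raised ones from 30 to 3000. The median with library totals was lowest, -0.20, between 100 and 1000 fragments.

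Measured in fragments and with library totals, the gain was concentrated on fewer unigenes than the loss. Between the libraries, 16.2% of the fragments lay on other unigenes, as the sum of all gains in share. Of all fragments gained, 50% fell on 156 unigenes, whereas 1509 unigenes made up 50% of the loss. Library totals make the total gain equal to the total loss. A rise of a few abundant unigenes then lowers the share of all others. The spread of gain and loss with TMM factors was not computed. The 10 largest gains amounted to 17.8% of the total, and the log2 ratios of these 10 unigenes lay between 0.23 and 1.47, so that 2 of them passed the 2-fold threshold. The 10 largest losses amounted to 10.3%, with log2 ratios between -3.89 and -0.10, and 7 of them passed. Beyond these, the rates were alike: 56 of the 156 unigenes were called raised, and 544 of the 1509 were called lowered. CL15889.Contig1_All alone made up 4.35% of the gain, the largest single share. The largest single share of the loss was 3.3%, on a unigene that was not called, and CL8191.Contig4_All made up 1.47% of the loss. All called unigenes together accounted for 32.7% of the gain and 32.7% of the loss, and the rest lay in changes below the thresholds. The raised unigenes took 7.77% of the fragments after 24 h and 2.47% in control leaves, and the lowered ones took 2.77% after 24 h and 8.07% in control leaves.

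**Figure D4:**
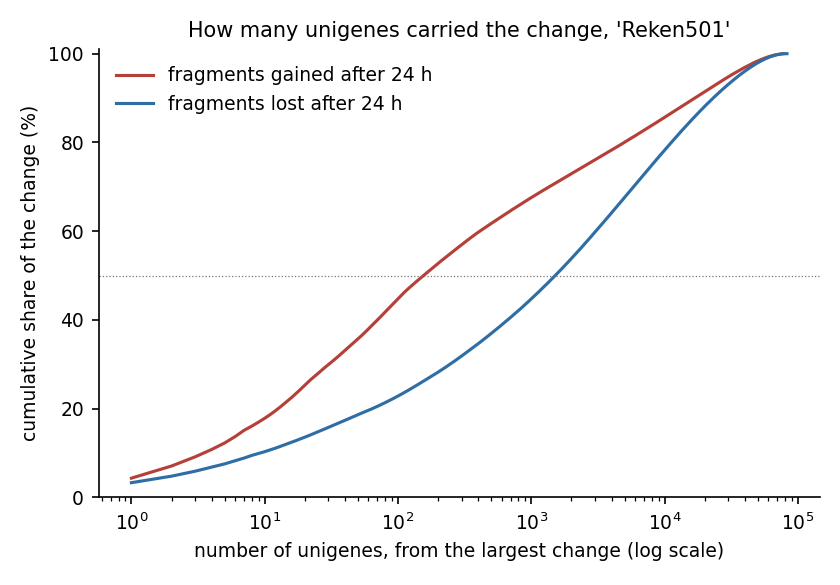
Cumulative share of the fragments gained and lost after 24 h of cold in ‘Reken501’ (vertical axis, %) against the number of unigenes, ordered from the largest change (horizontal axis, log scale). With library totals, the curve of the gain reached 50% at 156 unigenes and that of the loss at 1509, so the gain lay on fewer unigenes under that scaling.

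Among the 100 unigenes with the most fragments, 69 had a higher and 31 a lower share after 24 h (82 were higher with TMM factors), and 5 were raised and 4 lowered by 2-fold or more. These 100 took 35.7% of the fragments after 24 h and 32.1% in control leaves. Among the 1000 with the most fragments, 490 were higher and 510 lower, with 63 raised and 71 lowered, and 578 were higher with TMM factors.

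Contigs of clusters and stand-alone unigenes were called at different rates. Of the 65931 contigs, 2152 were raised (3.26%) and 2567 were lowered (3.89%), and of the 94180 stand-alone unigenes, 4251 were raised (4.51%) and 3303 were lowered (3.51%). The stand-alone unigenes were shorter, with a median of 281 bases against 1179 for contigs, and had fewer fragments, with a median of 9.5 against 24.5. Where the libraries averaged 100 fragments or more, stand-alone unigenes were called more often in both directions, with 6.62% raised and 11.7% lowered, against 3.91% and 7.33% of the contigs. Contigs of a cluster mostly moved the same way. In 778 clusters at least 2 contigs were called, and in 313 of them all called contigs were raised, in 384 all were lowered and in 81 (10.4%) some were raised and others lowered. Contigs of 1 cluster share sequence, so the counting could have divided their fragments. When the fragments of each cluster were summed, 70 of these 81 clusters were no longer called, 2 were raised and 9 were lowered.

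In the median, the called unigenes lay between control and 24 h levels after 1 h of cold in ‘Reken501’. Taken singly, 4627 of the raised (72.3%) and 4739 of the lowered unigenes (80.7%) lay between these levels. At or below both levels lay 1490 of the raised and 663 of the lowered, and at or above both lay 286 and 468. CL8191.Contig4_All and the 10 nearly lost unigenes did not lie between them. The sets were chosen by a gap between control and 24 h, so a 1 h value within the gap follows in part from that choice. The share over all unigenes was not computed. The comparison at 1 h uses the same control library, and its values are given side by side only. The median of the raised unigenes was 0.330 fragments per M in control leaves, 0.747 after 1 h and 2.32 after 24 h. That of the lowered unigenes was 4.34 in control leaves, 2.57 after 1 h and 1.48 after 24 h. The share of the library taken by the raised unigenes was 2.47% in control leaves, 3.42% after 1 h and 7.77% after 24 h. For the lowered unigenes these shares were 8.07%, 4.87% and 2.77%. The median log2 ratio to control of the raised unigenes was 2.74 at 24 h and 1.04 at 1 h, and that of the lowered unigenes was -1.63 at 24 h and -0.82 at 1 h. Over all unigenes tested it was -0.03 at 24 h and -0.07 at 1 h.

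The same unigenes were then followed in ‘93-114’, which shares no library with the comparison in ‘Reken501’. In that clone the call was made separately by the same exact test, and of the 153708 unigenes tested in both clones 3.06% were raised and 12.8% were lowered there after 24 h. Of the 6403 unigenes raised in ‘Reken501’, 2102 (32.8%) were raised and 184 (2.87%) were lowered in ‘93-114’. Of the 5870 lowered in ‘Reken501’, 2714 (46.2%) were lowered and 54 (0.920%) were raised. Both shares in the same direction lay above those of all unigenes, and both in the opposite direction lay below. The order was the same among unigenes that averaged 10 fragments or more in ‘93-114’. There, 40.3% of the raised ones were raised, against 4.80% of all, and 54.4% of the lowered ones were lowered, against 21.4% of all. The median log2 ratio in ‘93-114’ was 1.15 for the raised unigenes and -1.37 for the lowered ones, against -0.65 over all unigenes tested in both clones. With every count below 3 set to 3, the median of the raised unigenes was 0.98 and that of all unigenes -0.52. The scaling bore strongly on these values, because TMM factors raise every log2 ratio in ‘93-114’ by 0.68. With TMM factors in both clones, 3350 of 7525 raised unigenes (44.5%) were raised in ‘93-114’ against 6.77% of all, and 988 of 4612 lowered ones (21.4%) were lowered against 2.82% of all.

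The larger the increase in ‘Reken501’, the more often a unigene was raised in ‘93-114’. Of the 2019 unigenes raised 2-fold to 4-fold, 19.6% were raised in ‘93-114’, with a median log2 ratio of 0.18. The share was 28.6% of the 2664 raised 4-fold to 8-fold, with a median of 1.38. Of the 1302 raised 8-fold to 16-fold it was 46.9%, with a median of 2.36, and of the 418 raised 16-fold or more it was 79.7%, with a median of 3.67. With counts below 3 set to 3 in ‘93-114’ too, these 4 medians were 0.18, 1.115, 2.01 and 3.35. The share lowered in ‘93-114’ was 6.84% in the lowest and 0.478% in the highest of these classes. Among the unigenes lowered 2-fold to 4-fold, 51.1% of 3900 were lowered in ‘93-114’, and the share was 36.5% of 1537, 37.7% of 385 and 33.3% of 48 in the classes of larger decreases. In ‘93-114’ the median log2 ratio was -1.27, -1.65, -1.98 and -1.88 in these classes, so it was lower in the larger classes although fewer unigenes were called. The classes differ in depth, since the median of mean fragments in ‘Reken501’ was 74, 13.5, 18 and 42 from the lowest to the highest class of raised unigenes, and 83.5, 26, 19 and 51.8 in those of lowered unigenes. The part of depth in these shares was not tested.

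**Figure D5:**
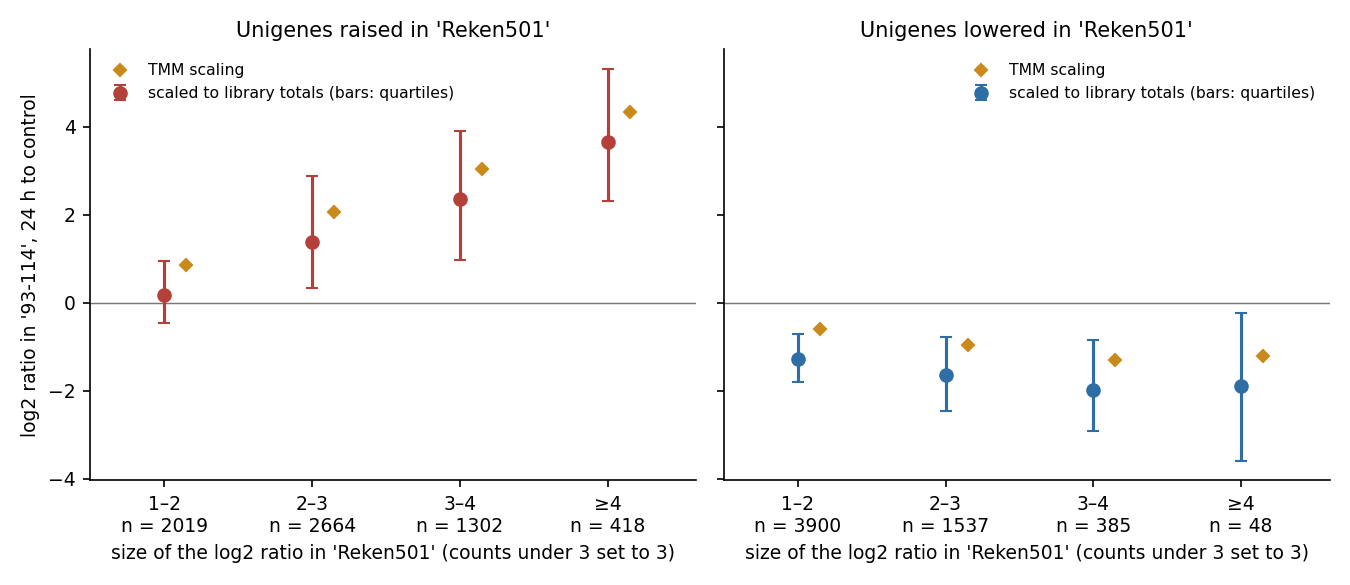
The log2 ratio of 24 h cold to control in ‘93-114’ (medians, with quartiles as bars, scaled to library totals, and medians with TMM factors as diamonds) for unigenes raised (left) and lowered (right) in ‘Reken501’, in 4 classes of the size of the log2 ratio in ‘Reken501’. Among the raised unigenes the median increased from class to class, from 0.18 in the lowest to 3.67 in the highest, while among the lowered ones all medians lay between -1.98 and -1.27.

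In levels, the raised unigenes of ‘Reken501’ had a median in ‘93-114’ of 0.639 fragments per M in control leaves, 0.565 after 1 h and 1.55 after 24 h. The lowered unigenes had 2.75 in control leaves, 1.41 after 1 h and 1.05 after 24 h. After 24 h the raised unigenes took 7.77% of the library of ‘Reken501’ and 7.02% of that of ‘93-114’, and in control leaves 2.47% and 3.52%. The lowered unigenes took 2.77% of the library of ‘Reken501’ and 2.64% of that of ‘93-114’ after 24 h, and 8.07% and 5.65% in control leaves. The difference between the clones in these shares was not tested, since each condition has 1 library per clone.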

How the data were processed

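Leaf RNA was measured in 6 libraries, 1 pool per condition. Reads with adapters or of low quality were discarded by the authors, who deposited 4 unigene tables. How the unigenes were assembled and counted is not given in the sources used here. The deposited counts are whole fragments per unigene whose column sums give the library totals. The deposited FPKM are those counts per kilobase and M fragments, and FPKM printed here were computed from the counts. The authors' own comparisons (log2 ratio, direction, P-value and FDR) were not used.

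Counts were scaled to library totals, and 0.5 fragments were added to each count for log2 ratios. The two-sided exact conditional binomial test was adjusted by the Benjamini-Hochberg method over all 160111 unigenes in Python 3.11.15 with scipy 1.17.1. It was run on simulated counts that held counting error only, so that run is no check on variation between pools. Scaling alternatives came from edgeR 4.0.16 and DESeq2 1.42.0 in R 4.3.3. Unigenes named by ID had, in each direction, the largest ratio with at least 200 fragments or the largest difference in fragments per M among called unigenes. Members, sets and tests were chosen with earlier results of these data known, and the nearly lost and nearly new sets after their values were seen. Shares of the members in ‘93-114’ were taken over all unigenes called in ‘Reken501’, of which 6284 raised and 5737 lowered ones were tested in ‘93-114’, and background shares over the unigenes tested in both clones. Intervals and floors cover counting error only.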

Additional observations from a re-analysis of the deposited data

Results flagged for a closer look

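After 24 h of cold, 184 unigenes were raised in ‘Reken501’ and lowered in ‘93-114’, and 54 were lowered in ‘Reken501’ and raised in ‘93-114’. These were 2.87% of the raised and 0.920% of the lowered unigenes of ‘Reken501’. Of all unigenes tested in both clones, 12.8% were lowered and 3.06% raised in ‘93-114’, so opposite calls were rarer than that. They were flagged because the clones moved in opposite directions. The difference between the clones was not tested, as each has 1 library a side. The 184 had a median of 102 fragments after 24 h and 35 in control leaves of ‘Reken501’, whereas in ‘93-114’ the medians were 36 after 24 h and 91.5 in control leaves. After TMM scaling, 68 of the 184 and 48 of the 54 still differed 2-fold or more in the same direction in each clone. CL8191.Contig4_All fell in ‘Reken501’, with a log2 ratio of -1.52, and had a log2 ratio of 0.50 in ‘93-114’ (-1.42 and 1.18 with TMM factors). In control leaves it had 3659 fragments per M in ‘Reken501’ and 134 in ‘93-114’.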

How the results depend on the processing

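No paired analysis was possible because each condition has 1 library. Depth limits calls to unigenes with at least 14 fragments over both libraries, and causes of the changes below were not tested. The numbers raised and lowered stayed within 1.5 times with TMM factors, DESeq2 factors, totals that leave out the 100 most-read unigenes, a minimum mean of 10 fragments, 5 fragments added and summed contigs. At an adjusted p of 0.05 they were 14271 and 12411, at a log2 ratio of 2 the lowered were 1906, and with edgeR's exact test at an assumed coefficient of variation of 0.2 they were 1874 and 576, and at 0.4 they were 60 and 9. The share raised among called unigenes, 52.2%, was 62.0% with TMM factors, 57.1% with DESeq2 factors, 59.9% without the 100 most-read, 49.8% at a mean of 10, 53.5% at 0.05, 69.4% at a log2 ratio of 2, 76.5% and 87.0% at coefficients of variation of 0.2 and 0.4, and 54.0% with contigs summed. The median log2 ratio, -0.124, was -0.021 with TMM factors, -0.078 with DESeq2 factors, -0.044 without the 100 most-read, -0.189 at a mean of 100, -0.026 with no minimum and -0.146 with contigs summed. The share of raised unigenes also raised in ‘93-114’, 32.8%, was 44.5%, 46.2% and 37.1% under TMM, DESeq2 and most-read scaling, and that of lowered unigenes also lowered, 46.2%, was 21.4%, 20.7% and 34.2%, and 25.8% at a log2 ratio of 2. The clusters with opposite contigs, 81, were 11 at a log2 ratio of 2. Alternatives for unigenes read in 1 library were chosen after seeing the data: 783 appeared and 53 disappeared at 20 fragments, 11 and 3 at 100, and 4361 and 1178 with 1 fragment allowed in the other library.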

Other observations

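The calls also varied with the length of the unigenes in ‘Reken501’. Where the libraries averaged 100 fragments or more, 100 of the 2711 of 3000 bases or more were raised (3.69%) and 97 were lowered (3.58%), whereas of the 8786 of 1000 to 2000 bases 403 were raised (4.59%) and 837 were lowered (9.53%). The median log2 ratio of 24 h to control was -0.10 in the longest class and -0.20 in the class of 1000 to 2000 bases. The longest class also had more fragments, with a median of 299 against 226, and the part of depth was not tested.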
